A study of Mus musculus with 64 samples.

Results

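Bone marrow macrophages of male C57BL/6 mice, aged 7 to 8 weeks, were compared after 8 h and after 1 h of lipopolysaccharide (LPS) at 5 ng/ml. The comparison rested on 4 of the 64 arrays of the study, chosen by strain, dose and time in the labels: 2 wells at 8 h and 2 wells at 1 h. Each array held RNA of 1 culture well, and the labels give 2 separate wells per time without saying that they came from different animals, so p-values measure the spread between wells, which may be technical. All wells carried 10000 U/ml CSF1, the growth factor of this lineage, and had been reseeded at 200000 cells per well 24 h before treatment. The comparison takes both groups from LPS-treated wells, and the untreated arrays enter it only through the error pooled over all arrays. It therefore measures what separates the later from the early response, and time since reseeding differs by the same 7 h and cannot be told apart from time in LPS. In the other courses, C57BL/6 macrophages received LPS at 0.5 or 50 ng/ml and BALB/c macrophages received 5 ng/ml. Each course had 2 wells at 8 h and 2 wells at 1 h, and the BALB/c mice were also aged 7 to 8 weeks. Those 12 arrays served to test where the change at C57BL/6 5 ng/ml differed in size. The remaining arrays entered the tests only through the pooled error. They were untreated wells of both strains, LPS wells at other times, and BALB/c wells given interferon-beta or interferon-gamma at 10 U/ml.

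LPS, a cell wall component of Gram-negative bacteria, is sensed by Tlr4 with Cd14 and Ly96. One adaptor branch, through Myd88, drives NF-kB and MAP kinases and switches on immediate early genes and inflammatory cytokines. The other, through Ticam1 (TRIF), drives Irf3 and the secretion of interferon-beta, which then acts back on the macrophage through its receptor and induces interferon-stimulated genes. CSF1 keeps these cells dividing in culture, and LPS is known to stop that division.

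Levels below are log2 of the deposited intensity, and differences are 8 h minus 1 h ± SE from limma, fitted over all 64 arrays, with p adjusted by Benjamini-Hochberg over 18820 genes. A gene was called where the adjusted p was under 0.05 and the difference at least 1 log2, a change by a factor of 2. Because the error is pooled over all groups, a gene that varied between wells elsewhere in the study carries a large SE even where the 4 arrays here lie close together. The correlation between the 2 wells was 0.996 at 8 h and 0.996 at 1 h across genes, and 2 and 3 genes differed by more than 1.5 log2 between wells of a time. A component of the probe sets without a gene split the 64 arrays into 53 and 11, and all 4 arrays of this comparison lay among the 53. In the other courses that split ran through the 1 h wells at 0.5 ng/ml and of BALB/c. The 1 h wells at 50 ng/ml differed from each other by over 1.5 log2 in 80 genes and those at 0.5 ng/ml in 25 genes, replicate 1 being the higher in late response genes such as Nos2, with 10.17 and 5.34 at 50 ng/ml and 8.12 and 3.98 at 0.5 ng/ml.

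Between 1 h and 8 h many interferon-stimulated genes, late cytokines and effector enzymes rose. Many immediate early transcription factors, MAP kinase phosphatases and genes of DNA replication and mitosis fell, though not every member of these classes. Of 18820 genes, 880 were higher at 8 h (4.68%) and 1186 were lower (6.30%), 2066 in all (11.0%) by limma's moderated test. Rises were fewer and larger: their median was 1.63 log2, and 139 of them reached 3 log2 and 30 reached 5 log2. Falls had a median size of 1.38 log2, and 30 of them reached 3 log2 and 0 reached 5 log2. The median over all genes was 0.02, with quartiles at -0.27 and 0.26. Centring each array on its median moved that shift to -0.12 and gave 738 higher and 1500 lower genes, a share of 33.0% higher in place of 42.6%.

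The largest rise was that of Nos2 (probe set 10379228, chromosome 11), the inducible nitric oxide synthase. Its level was 12.16 and 12.20 in the 8 h wells, against 4.41 and 4.56 in the 1 h wells. The difference was 7.70 ± 0.86, a 207-fold rise (adjusted p = 1.4e-09). Il6 (probe set 10520452, chromosome 5), the cytokine interleukin-6, had levels of 11.38 and 11.44 in the 8 h wells, against 4.39 and 4.29 in the 1 h wells. Both times were tightly grouped and the difference was 7.07 ± 0.56 (adjusted p = 1.8e-13). Tnfsf10 (probe set 10491091, chromosome 3), the death ligand TRAIL, had 10.45 and 10.41 in the 8 h wells, against 3.49 and 4.58 in the 1 h wells. The 1 h wells lay over 1 log2 apart, and their mean of 4.04 was under 4.19, the 40th percentile of all values, below which a level is called dim here. The measured difference was 6.39 ± 0.37 (adjusted p = 2.0e-17), and set against that percentile the rise was at least 6.24 log2, or at least 75.5-fold. Edn1, the precursor of the vasoconstrictor endothelin-1, had 10.55 and 10.56 in the 8 h wells, against 4.66 and 4.195 in the 1 h wells, a difference of 6.13 ± 0.34 (adjusted p = 6.1e-18). Il12b, the p40 subunit shared by interleukin-12 and interleukin-23, had 11.36 and 11.32 in the 8 h wells, against 5.41 and 5.12 in the 1 h wells, a difference of 6.07 ± 0.31 (adjusted p = 1.3e-18). Lipg, the endothelial lipase, had 10.17 and 10.14 in the 8 h wells, against 4.11 and 4.76 in the 1 h wells, a difference of 5.72 ± 0.25 (adjusted p = 1.7e-20). Cfb, complement factor B of the alternative pathway, had 10.64 and 10.69 in the 8 h wells, against 5.03 and 4.99 in the 1 h wells, a difference of 5.66 ± 0.71 (adjusted p = 1.8e-08). Itgb8, an integrin beta subunit known for activating TGF-beta, had 9.78 and 9.85 in the 8 h wells, against 4.197 and 4.55 in the 1 h wells, a difference of 5.44 ± 0.41 (adjusted p = 3.5e-14). The other 6 genes of the 14 largest rises are chemokine or interferon-stimulated genes described below. The 14 were chosen among genes whose 2 arrays at 8 h both lay above both arrays at 1 h, which held for 32.7% of all genes, as the reverse did for 33.3%. Of the 2066 called genes 100 had the mean of their dimmer time under the 40th percentile, so that their differences are as measured and not exact. Among those named below, the rises were at least 5.12 for Iigp1, 5.28 for Cxcl9, 4.63 for Inhba, 4.56 for Ifi213, 3.63 for Il12a, 3.27 for Apol7c, 1.17 for Alpk2 and 0.05 for Angpt1 against that percentile. Among the falls, Dennd2c lay at that percentile at 8 h, with a mean of 4.188. At its bound Iigp1 would stand below Itgb8, the last of the 14.

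**Figure D1:**
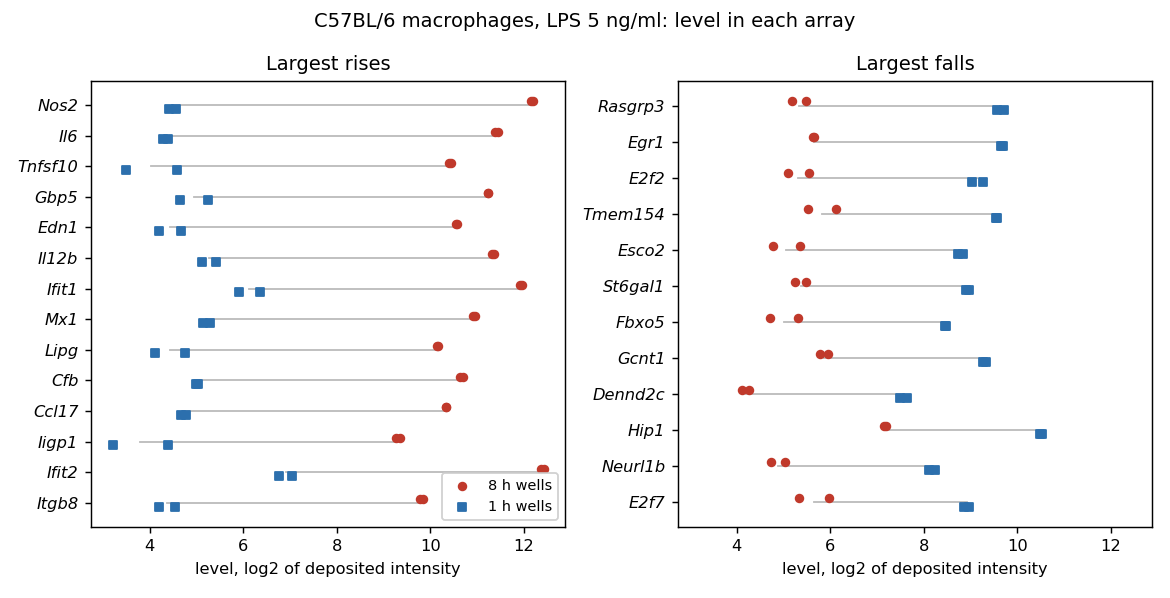
Level of the 14 genes with the largest rise (left) and the 12 with the largest fall (right) in each array, as log2 of the deposited intensity on the horizontal axis. Circles are the 2 wells at 8 h, squares the 2 wells at 1 h, and grey lines join the group means. The 8 h wells of the rising genes lie between 9.27 and 12.43, and those of the falling genes between 4.12 and 7.20.

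Genes that interferon induces rose almost as a body. Of 29 measured antiviral interferon-stimulated genes 27 rose and 0 fell, with a median difference of 3.58, against 0.02 over all genes. Ifit1, which binds viral RNA that lacks host cap methylation, had levels of 11.97 and 11.93 in the 8 h wells, against 5.90 and 6.36 in the 1 h wells. Its difference was 5.82 ± 0.40, a 56.3-fold rise (adjusted p = 3.3e-15). Mx1, a gene of the Mx family of GTPases, had 10.92 and 10.97 in the 8 h wells, against 5.14 and 5.29 in the 1 h wells, a difference of 5.73 ± 0.40 (adjusted p = 5.9e-15). Ifit2, of the same family as Ifit1, had 12.37 and 12.43 in the 8 h wells, against 6.77 and 7.05 in the 1 h wells, a difference of 5.49 ± 0.43 (adjusted p = 1.7e-13). Ifi205, of the HIN-200 family of DNA-binding proteins, rose by 5.32 and Oasl1, of the oligoadenylate synthetase family, by 5.25. The 2 members that were not called were Ifi27l2a at 0.92 and Ifitm3 at 0.44. All 9 measured guanylate-binding proteins and immunity-related GTPases rose, with a median of 4.76. These GTPases act on the vacuoles of intracellular pathogens. Gbp5 had 11.22 and 11.24 in the 8 h wells, against 5.26 and 4.64 in the 1 h wells, a difference of 6.29 ± 0.41 (adjusted p = 9.6e-16), and Iigp1 had 9.27 and 9.36 in the 8 h wells, against 4.38 and 3.21 in the 1 h wells, a measured difference of 5.52 ± 0.45 from a dim level (adjusted p = 4.8e-13). Gbp2, Gbp3 and Gbp7 rose by 5.30, 5.21 and 4.76. Of 14 PARP and TRIM genes, which add ADP-ribose or ubiquitin in antiviral defence, 13 rose with a median of 2.01, led by Parp14 at 3.42, Trim21 at 3.23 and Parp11 at 2.91.

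Promoters are shown for Ifit1 and Ifi205, chosen among the antiviral genes that rose most because their windows hold matches to an interferon element. The sequences are RefSeq windows of GRCm38.p6, from 250 bases before to 50 bases after an annotated start, in the sense of the gene. Capitals mark matches to the core of the interferon-stimulated response element, spelled GAAA, then any 2 bases, then GAAA, on either strand, in Ifit1 and Ifi205, and to an NF-kB site on both strands in Nr4a1, an immediate early gene that moved the other way. The RefSeq table also holds 2 windows of Ifit2, and neither has a match to that core, while 1 of them has an NF-kB match.
Ifit1, chr19:34640639-34640938, plus strand: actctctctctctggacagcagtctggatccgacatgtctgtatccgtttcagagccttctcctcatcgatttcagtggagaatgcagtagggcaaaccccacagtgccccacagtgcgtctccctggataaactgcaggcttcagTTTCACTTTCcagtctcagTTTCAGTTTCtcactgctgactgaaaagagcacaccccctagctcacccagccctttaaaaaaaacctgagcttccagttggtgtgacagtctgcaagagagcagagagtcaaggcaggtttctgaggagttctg
Ifi205, chr1:174031706-174032005, minus strand: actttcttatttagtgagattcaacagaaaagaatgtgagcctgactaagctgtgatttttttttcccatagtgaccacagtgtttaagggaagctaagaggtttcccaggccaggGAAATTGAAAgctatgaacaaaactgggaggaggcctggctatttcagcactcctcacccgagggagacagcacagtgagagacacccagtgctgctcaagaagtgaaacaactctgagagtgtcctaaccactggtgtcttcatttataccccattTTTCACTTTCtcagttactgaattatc
Nr4a1, chr15:101266596-101266895, plus strand: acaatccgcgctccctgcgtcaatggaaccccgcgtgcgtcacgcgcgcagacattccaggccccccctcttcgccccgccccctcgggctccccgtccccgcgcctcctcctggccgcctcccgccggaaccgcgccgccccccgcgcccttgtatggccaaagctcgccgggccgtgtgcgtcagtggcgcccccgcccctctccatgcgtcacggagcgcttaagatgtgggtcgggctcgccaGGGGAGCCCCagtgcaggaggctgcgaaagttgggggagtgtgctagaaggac

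In the Ifit1 window the 2 matches run from -104 to -95 and from -85 to -76 relative to the start, both on the strand opposite to the gene. In the Ifi205 window they run from -134 to -125 and from 24 to 33. That core was in 10 of 26 windows (38.5%) of the antiviral genes and in 5 of 6 windows of the guanylate-binding and immunity-related GTPases, against 1131 of 32851 (3.44%) over all promoters in the table. It was in 1 of 24 windows of the immediate early genes and in 0 of 21 of the replication genes. The NF-kB site was in 7 of 24 windows of the immediate early genes, 6 of 21 of the cytokines and 6 of 26 of the antiviral genes, against 8.46% of all promoters. These are counts of letters and not of bound factors. They covered the 21 antiviral, 5 GTPase, 18 immediate early, 17 cytokine and 19 replication genes that matched the table by symbol.

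Components of interferon signalling rose in part. Of 21 measured genes 10 rose and 0 fell, with a median of 0.75. Irf7, the transcription factor that amplifies interferon production, had 12.47 and 12.51 in the 8 h wells, against 8.50 and 8.86 in the 1 h wells, a difference of 3.81 ± 0.34 (adjusted p = 4.1e-12). Socs1, a feedback inhibitor of cytokine receptors, rose by 3.23 ± 0.25, Stat2, part of the factor that binds interferon response elements, by 3.16 ± 0.24, and the kinase Jak2 by 3.11 ± 0.19. Cish, a relative of Socs1, rose by 2.40 ± 0.27. Ifnb1, the gene of interferon-beta itself and chosen after its values were seen, was dim at both times, with 3.82 and 3.59 in the 8 h wells, against 3.84 and 3.50 in the 1 h wells, levels below the 40th percentile of all values at 4.19. Its difference was 0.04 ± 0.25 (adjusted p = 0.93).

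Among 24 measured cytokine genes 15 rose and 2 fell, with a median of 2.15. Il27, a subunit of interleukin-27, had 11.01 and 11.03 in the 8 h wells, against 5.98 and 6.17 in the 1 h wells, a difference of 4.95 ± 0.28 (adjusted p = 1.0e-17), and ranked after Il6, Tnfsf10, Edn1 and Il12b in its list. Il12a, which pairs with Il12b to make interleukin-12, had 7.98 and 7.65 in the 8 h wells, against 3.91 and 4.16 in the 1 h wells, a measured difference of 3.78 ± 0.21 from a dim level (adjusted p = 1.6e-17). Il1b had 11.88 and 11.83 in the 8 h wells, against 8.37 and 7.76 in the 1 h wells, a difference of 3.79 ± 0.93 with a wide error (adjusted p = 0.0011). Il1b and the 2 members that fell were named after their values were seen. Those 2 were Tnfsf9, the ligand of the co-stimulatory receptor 4-1BB, with 8.97 and 9.01 in the 8 h wells, against 11.59 and 11.38 in the 1 h wells and a difference of -2.50 ± 0.23, and Vegfa, the vascular growth factor, at -1.46 ± 0.17.

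Chemokine genes rose or did not pass the test, and none was called lower. Of 8 CXC chemokine genes 5 rose and 0 fell, with a median of 2.16, and of 12 CC chemokine genes 6 rose and 0 fell, with a median of 1.07. Cxcl9, a ligand of Cxcr3 on activated T cells, had 9.43 and 9.52 in the 8 h wells, against 3.70 and 4.53 in the 1 h wells, a measured difference of 5.36 ± 0.43 from a dim level (adjusted p = 2.3e-13). Cxcl10, another ligand of that receptor, rose by 3.23 ± 0.26, the related gene Cxcl11 by 2.69 ± 0.21 and the neutrophil attractant Cxcl3 by 4.50 ± 0.48. Ccl17, which attracts cells bearing Ccr4, had 10.33 and 10.34 in the 8 h wells, against 4.77 and 4.67 in the 1 h wells, a difference of 5.62 ± 0.39 (adjusted p = 3.5e-15). Ccl22, a ligand of the same receptor, had 10.48 and 10.54 in the 8 h wells, against 5.68 and 6.01 in the 1 h wells, a difference of 4.67 ± 0.29. Ccl5, a T cell attractant, rose by 5.18 ± 0.78.

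A set of early LPS genes, chosen after their values were seen, stood at nearly the same level at both times. Tnf, the cytokine tumour necrosis factor, had 13.12 and 13.18 in the 8 h wells, against 13.10 and 13.06 in the 1 h wells, a difference of 0.07 ± 0.14 (adjusted p = 0.76). Its means at 2 h and 4 h were 13.29 and 13.15, and the highest value on any array of the study is 17782 on the linear scale. The neutrophil attractants Cxcl1 and Cxcl2 differed by -0.0011 ± 0.46 and 0.10 ± 0.73, and the monocyte attractant Ccl2 by 0.19 ± 0.10. The NF-kB inhibitors and regulators Nfkbia, Tnfaip3 and Nfkbiz differed by -0.27 ± 0.12, 0.03 ± 0.13 and 0.01 ± 0.24. None of these 7 was called, the adjusted p of each being at least 0.079. At 24 h Cxcl1, with 8.82 and 9.06, and Nfkbiz, with 9.08 and 9.38, lay below both their 8 h and their 1 h wells.

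**Figure D2:**
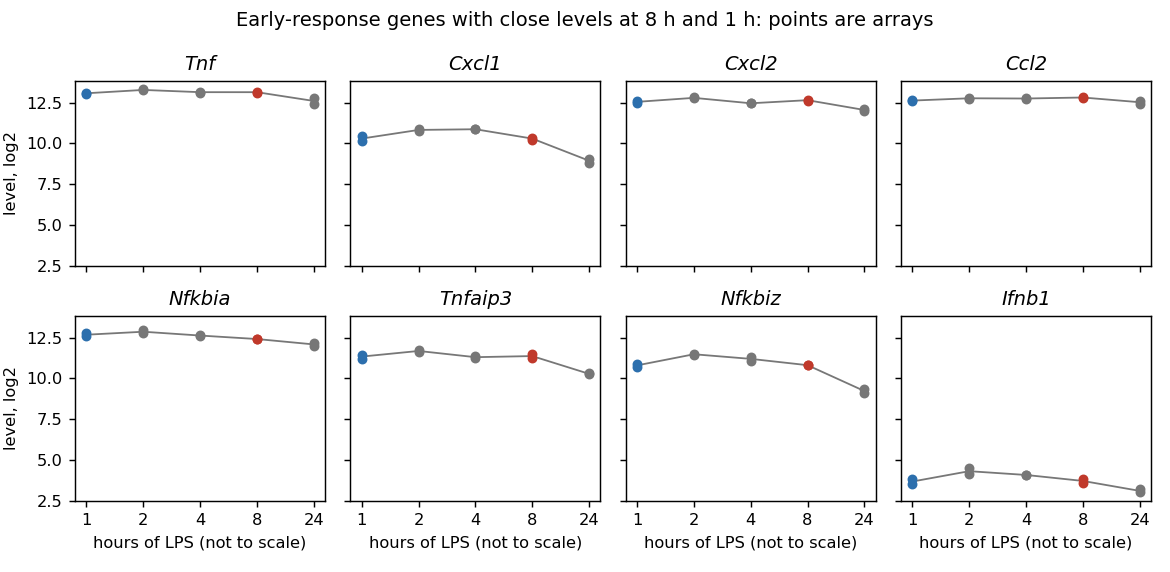
Level of 8 early or weakly detected response genes over the 5 ng/ml course, as log2 of the deposited intensity against hours of LPS. Points are arrays, lines join group means, and the 1 h and 8 h wells are blue and red. Tnf, Ccl2, Cxcl2 and Nfkbia have their lowest value at 11.997 over all arrays, and Ifnb1 its highest at 4.49.

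Of the 18 measured members of the NF-kB list, to which Nfkbia, Tnfaip3 and Nfkbiz belong, 8 were called higher and 0 lower, with a median of 0.90. Nfkbid, a nuclear member of the NF-kB inhibitor family named after its value was seen, was lower by less than the minimum change, at -0.69 ± 0.17 (adjusted p = 0.0012). Traf1, a signalling adaptor of tumour necrosis factor receptors, had 10.70 and 10.65 in the 8 h wells, against 8.39 and 8.13 in the 1 h wells, a difference of 2.41 ± 0.19 (adjusted p = 2.3e-13). The kinases of the interleukin-1 receptor family Irak2 and Irak3, of which the second is known as an inhibitor, rose by 2.01 ± 0.11 and 1.61 ± 0.13. Nfkb2, the precursor of the p52 subunit, rose by 1.92 ± 0.16, and Birc3, a ubiquitin ligase of that pathway, by 1.48 ± 0.11.

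Of 16 effector enzymes and secreted proteins 12 rose and 0 fell, with a median of 2.22. Beside Nos2 and Cfb, Hdc, which makes histamine, had 9.21 and 9.28 in the 8 h wells, against 5.38 and 4.91 in the 1 h wells, a difference of 4.10 ± 0.20 (adjusted p = 5.0e-19). Saa3, an acute phase protein, had 12.47 and 12.57 in the 8 h wells, against 8.73 and 8.31 in the 1 h wells, a difference of 3.99 ± 0.69 (adjusted p = 9.0e-06). Ptges, which completes the synthesis of prostaglandin E2, had 10.61 and 10.71 in the 8 h wells, against 6.95 and 6.81 in the 1 h wells, a difference of 3.78 ± 0.43 (adjusted p = 2.0e-09).

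Surface and sensing genes of the activated macrophage rose as well. Rises were called in 11 of 18 genes of co-stimulation and adhesion and falls in 0, and the list's median was 1.74. Cd69, an early activation marker, had 12.07 and 12.21 in the 8 h wells, against 8.00 and 7.64 in the 1 h wells, a difference of 4.32 ± 0.21 (adjusted p = 4.1e-19), and Cd40, the receptor for T cell help, had 12.53 and 12.55 in the 8 h wells, against 8.73 and 8.56 in the 1 h wells, a difference of 3.90 ± 0.25. The adhesion molecule Vcam1 rose by 3.77 ± 0.29, the checkpoint ligand Cd274 by 3.30 ± 0.20 and the co-stimulatory ligand Cd86 by 2.64 ± 0.17. Of 28 pattern recognition genes 20 rose and 1 fell, with a median of 1.17. The bacterial peptidoglycan sensor Nod1 had 10.35 and 10.38 in the 8 h wells, against 6.58 and 6.45 in the 1 h wells, a difference of 3.85 ± 0.24, and the viral RNA sensors Ifih1, Dhx58 and Ddx58 rose by 3.78 ± 0.17, 2.94 ± 0.11 and 2.87 ± 0.16. The 1 that fell was Tlr5, the flagellin receptor, with 4.72 and 4.47 in the 8 h wells, against 6.77 and 7.05 in the 1 h wells and a difference of -2.31 ± 0.21. Of 14 genes of MHC class I presentation and the immunoproteasome 11 rose, with a median of 1.29. Nlrc5, their transactivator, rose by 2.73 ± 0.20, the peptide transporter subunits Tap1 and Tap2 by 2.64 ± 0.12 and 2.11 ± 0.15, the editor Tapbpl by 2.42 ± 0.11 and the proteasome subunit Psmb10 by 2.35 ± 0.16. In MHC class II 2 of 7 rose, Ciita, the class II transactivator, by 1.57 ± 0.21 and H2-Ab1 by 1.29 ± 0.22.

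Many immediate early genes were lower at 8 h than at 1 h. Of 22 measured members 9 fell and 1 rose, with a median of -0.83. Egr1 (probe set 10454782, chromosome 18), a zinc finger transcription factor that growth factors and LPS induce within minutes, had 5.64 and 5.65 in the 8 h wells, against 9.70 and 9.66 in the 1 h wells. Its difference was -4.03 ± 0.22, a 16.4-fold fall (adjusted p = 4.5e-18). Nr4a1, an orphan nuclear receptor, had 4.54 and 5.06 in the 8 h wells, against 7.16 and 7.27 in the 1 h wells, a difference of -2.41 ± 0.22 (adjusted p = 5.2e-12). Myc, which drives growth and biosynthesis, had 8.54 and 8.58 in the 8 h wells, against 10.67 and 10.65 in the 1 h wells, a difference of -2.10 ± 0.16 (adjusted p = 1.1e-13). Egr2 fell by 1.83 on the log2 scale. The exception was Nr4a3, of the same family as Nr4a1, with 7.70 and 7.73 in the 8 h wells, against 4.65 and 4.47 in the 1 h wells and a difference of 3.15 ± 0.20 (adjusted p = 3.1e-16). Nr4a2, the remaining member of that family and named after its value was seen, was at 0.75 ± 0.18 and was not called.

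Most but not all of the MAP kinase phosphatases, which switch off the kinases upstream of those genes, fell. Of 14 phosphatases and mRNA decay factors 8 fell and 3 rose, with a median of -1.33. Dusp6, an Erk phosphatase, had 7.72 and 7.60 in the 8 h wells, against 10.11 and 10.19 in the 1 h wells, a difference of -2.49 ± 0.14 (adjusted p = 1.6e-17). Dusp5 had 6.19 and 6.37 in the 8 h wells, against 8.91 and 8.77 in the 1 h wells, a difference of -2.56 ± 0.15 (adjusted p = 1.8e-17). Dusp7 and Dusp8 differed by -1.89 ± 0.12 and -1.78 ± 0.26. Dusp2 and Dusp4, named after their values were seen, were not called, at 0.15 ± 0.24 and -0.33 ± 0.17 (adjusted p = 0.69 and 0.13). Zfp36l1, a protein that destabilises mRNA through AU-rich elements, had 6.16 and 5.94 in the 8 h wells, against 8.73 and 8.60 in the 1 h wells, a difference of -2.61 ± 0.18 (adjusted p = 4.7e-15). The 3 that rose, named after their values were seen, were the RNA-degrading proteins Zc3h12a at 1.19 ± 0.16 and Zc3h12c at 1.30 ± 0.16, and the phosphatase Dusp16 at 1.03 ± 0.09.

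The largest fall of all was that of Rasgrp3 (probe set 10446965, chromosome 17), an exchange factor that activates Ras. Its level was 5.18 and 5.48 in the 8 h wells, against 9.57 and 9.71 in the 1 h wells. The difference was -4.31 ± 0.21, a 19.9-fold fall (adjusted p = 3.5e-19). Of the other 11 largest falls, 4 besides Egr1 encode cell cycle proteins. E2f2, a factor that drives entry into S phase, had 5.09 and 5.54 in the 8 h wells, against 9.26 and 9.02 in the 1 h wells, a difference of -3.83 ± 0.18 (adjusted p = 4.9e-20). E2f7, an E2F repressor that peaks in S phase, had 5.97 and 5.33 in the 8 h wells, against 8.86 and 8.97 in the 1 h wells, a difference of -3.26 ± 0.16 (adjusted p = 3.0e-19). Esco2, which acetylates cohesin during replication, had 5.34 and 4.78 in the 8 h wells, against 8.72 and 8.84 in the 1 h wells, a difference of -3.72 ± 0.19, and Fbxo5, an inhibitor of the anaphase-promoting complex, had 4.71 and 5.31 in the 8 h wells, against 8.48 and 8.46 in the 1 h wells, a difference of -3.46 ± 0.22. The others encode the glycosyltransferases St6gal1 and Gcnt1, at -3.57 ± 0.20 and -3.43 ± 0.14, the endocytic adaptor Hip1, at -3.33 ± 0.16, the ubiquitin ligase Neurl1b, at -3.29 ± 0.21, and the proteins Tmem154 and Dennd2c, at -3.74 ± 0.15 and -3.38 ± 0.13. The adjusted p was at most 6.3e-16 for each of these 12. Under the 18 alternatives described below the difference of Tmem154 stayed called but ran from -4.04 to -1.99, so its place among the 12 depends on the processing.

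Of 22 measured genes of DNA replication and nucleotide synthesis 19 fell and 0 rose, with a median of -1.52. Uhrf1, which maintains DNA methylation at replication forks, had 6.53 and 6.33 in the 8 h wells, against 9.68 and 9.68 in the 1 h wells, a difference of -3.25 ± 0.15 (adjusted p = 4.6e-20). Cdc6, which loads the replicative helicase, had 4.75 and 4.91 in the 8 h wells, against 7.60 and 7.88 in the 1 h wells, a difference of -2.91 ± 0.18, and the helicase subunits Mcm2 and Mcm7 differed by -2.67 ± 0.14 and -2.45 ± 0.12. Rrm2, the regulated subunit of ribonucleotide reductase, had 8.56 and 8.50 in the 8 h wells, against 10.96 and 10.99 in the 1 h wells, a difference of -2.44 ± 0.22. Of 19 mitosis genes 16 fell and 0 rose, with a median of -1.43. The checkpoint kinase Bub1b had 7.23 and 7.23 in the 8 h wells, against 9.49 and 9.45 in the 1 h wells, a difference of -2.24 ± 0.13, the kinetochore protein Cenpf differed by -1.84 ± 0.16, and the kinase Ttk by -1.79 ± 0.14. The drivers and brakes of G1 did not move as a block. Of 20 measured, 4 rose and 7 fell, with a median of -0.06. Ccnd1, the cyclin that CSF1 induces, had 10.01 and 9.96 in the 8 h wells, against 12.39 and 12.36 in the 1 h wells, a difference of -2.39 ± 0.10 (adjusted p = 3.4e-21), and the inhibitor Cdkn2c differed by -1.92 ± 0.14. In the opposite direction the inhibitor Cdkn2b had 6.80 and 6.79 in the 8 h wells, against 5.46 and 5.58 in the 1 h wells, a difference of 1.28 ± 0.18, and cyclin Ccnd2, named after its value was seen, differed by 1.19 ± 0.12.

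**Figure D3:**
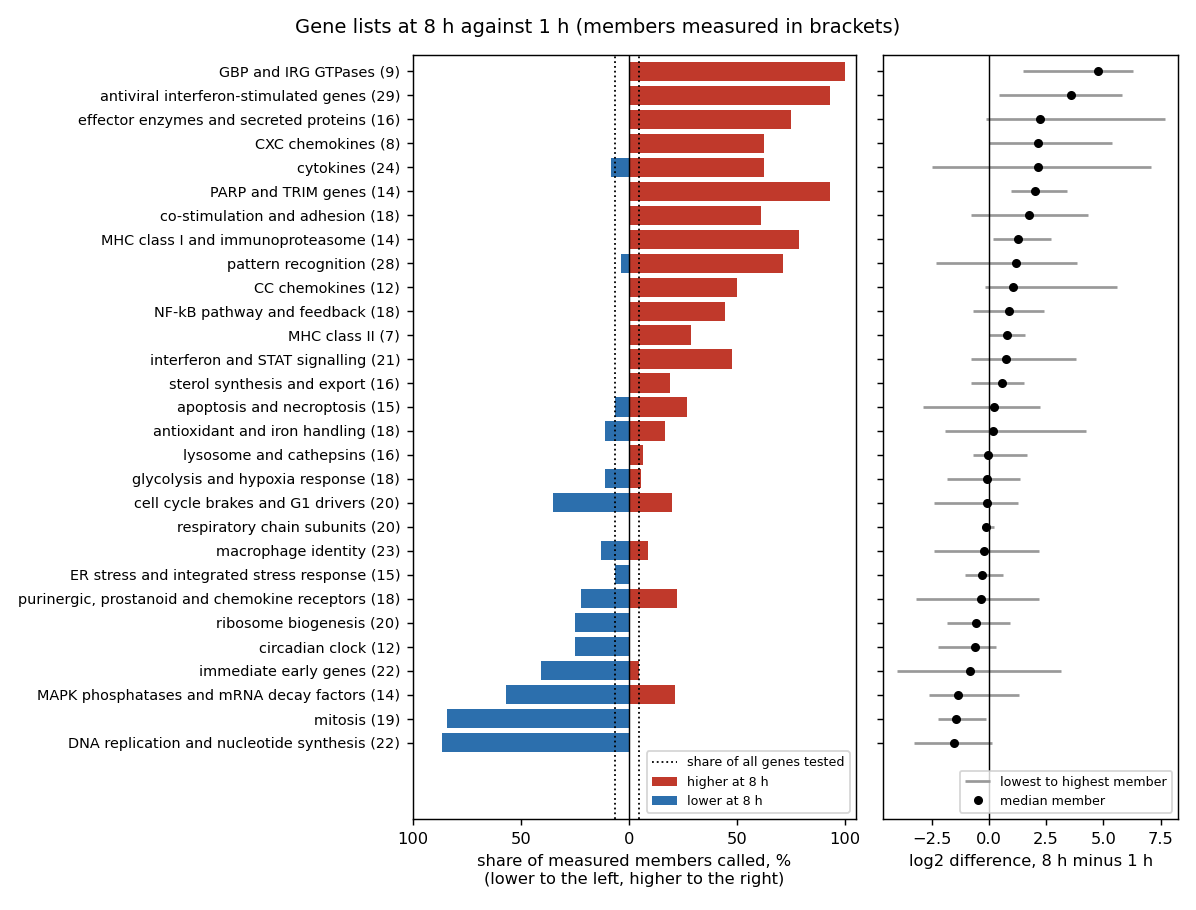
Share of the measured members of each of 29 gene lists called higher (right, red) or lower (left, blue) at 8 h against 1 h, with dotted lines at the shares over all genes, 4.68% and 6.30%. The right panel gives the median member and the range of log2 differences. The GTPase and antiviral lists stand at the top with medians of 4.76 and 3.58, and the mitosis and replication lists at the bottom with -1.43 and -1.52.

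Metabolic and housekeeping lists differed in their share of calls, against 4.68% higher and 6.30% lower over all genes. Of 20 subunits of the respiratory chain 0 rose and 0 fell by limma's test, and 5 had an unadjusted p under 0.05. In glycolysis and the hypoxia response 1 of 18 rose (5.56%), the regulator Pfkfb3 at 1.38 ± 0.12, and 2 fell (11.1%), the oxygen sensor Egln3 at -1.84 ± 0.21 and the kinase Pdk1 at -1.26 ± 0.16. In ribosome biogenesis 5 of 20 fell (25%) and 0 rose, led by the pseudouridine synthase Dkc1 at -1.84 ± 0.18 and the RNA polymerase I subunit Polr1b at -1.53 ± 0.14. Of 16 lysosomal genes 1 rose, the transcription factor Tfec at 1.69 ± 0.11. Of 15 genes of the endoplasmic reticulum stress response 1 fell, Trib3 at -1.03 ± 0.16, and of 12 clock genes 3 fell (25%), with the repressor Bhlhe40 at -2.23 ± 0.22. In sterol synthesis and export 3 of 16 rose (18.8%), among them the oxysterol receptor Nr1h3 at 1.55 ± 0.13 and the exporter Abca1 at 1.104 ± 0.22. Among 18 antioxidant and iron genes 3 rose (16.7%) and 2 fell (11.1%). Slc7a11, the cystine importer, had 11.73 and 11.84 in the 8 h wells, against 7.67 and 7.36 in the 1 h wells, a difference of 4.26 ± 0.49 (adjusted p = 2.4e-09), and the iron importer Slc11a2 rose by 1.76 ± 0.09. The iron exporter Slc40a1 and the ferrireductase Steap3 fell, at -1.38 ± 0.13 and -1.90 ± 0.12.

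Lists of survival and of response to other signals held calls in both directions, set here against 4.68% higher and 6.30% lower over all genes. Bcl2, the anti-apoptotic protein, had 7.13 and 7.03 in the 8 h wells, against 10.00 and 9.95 in the 1 h wells, a difference of -2.90 ± 0.22 (adjusted p = 2.9e-14). Under the 18 alternatives described below its difference stayed called but ran from -3.03 to -1.58, so the size of its fall depends on the processing. Bcl2 was the 1 of 15 death genes that fell (6.67%), a share near that over all genes. The 4 that rose (26.7%) were the necroptosis effector Mlkl at 2.21 ± 0.16, the pyroptosis effector Gsdmd at 1.87 ± 0.12, and the inhibitors Birc2 and Cflar at 1.39 ± 0.18 and 1.38 ± 0.15. Of 18 purinergic, prostanoid and chemokine receptors 4 rose (22.2%) and 4 fell (22.2%). Cxcr4, the receptor for Cxcl12, had 5.64 and 5.98 in the 8 h wells, against 9.02 and 8.94 in the 1 h wells, a difference of -3.17 ± 0.26 (adjusted p = 5.3e-13). The fractalkine receptor Cx3cr1 had 6.50 and 6.53 in the 8 h wells, against 8.97 and 8.89 in the 1 h wells, a difference of -2.41 ± 0.13, and the monocyte chemokine receptor Ccr2 differed by -1.65 ± 0.22. Ccr7, the receptor that guides cells to lymph nodes, rose by 2.17 ± 0.20. Of 23 genes of macrophage identity 2 rose and 3 fell. The high affinity IgG receptor Fcgr1 had 10.96 and 10.90 in the 8 h wells, against 8.64 and 8.81 in the 1 h wells, a difference of 2.21 ± 0.16, and the factor Cebpb differed by 1.14 ± 0.19. Its relative Cebpa had 6.05 and 6.39 in the 8 h wells, against 8.14 and 8.32 in the 1 h wells, a difference of -2.01 ± 0.25.

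The labelled cell type was checked against 9 macrophage markers, Lyz2 and Csf1r among them, all of which lay above the 40th percentile of values at both times and whose summed intensity was 40933 to 41901 at 8 h and 40060 to 40433 at 1 h. Levels of different probe sets cannot be set against each other, so the sums of the other lists are compared only between times, and they do not measure how many cells of another type the wells held. Above that percentile at both times were 10 of 12 neutrophil, 4 of 8 dendritic cell, 1 of 6 B cell, 2 of 8 T and NK cell, 1 of 4 erythroid, 4 of 7 stromal and 0 of 5 mast cell and basophil markers. Neutrophil markers, 12 in all with Mmp8 the highest, summed to 661 to 720 at 8 h and 893 to 927 at 1 h, and dendritic cell markers, 8 with Itgax the highest, to 596 to 606 at 8 h and 486 to 501 at 1 h. Of these 8, Ccr7 was called higher at 2.17 ± 0.20 and Cd209a lower at -1.01 ± 0.28, while Itgax was at -0.22 ± 0.12 and was not called. B cell markers summed to 121 to 130 at 8 h and 166 to 182 at 1 h, T and NK cell markers to 131 to 142 at 8 h and 128 to 141 at 1 h. Erythroid markers summed to 62.5 to 65.4 at 8 h and 53.0 to 60.2 at 1 h, and mast cell and basophil markers to 47.8 to 51.5 at 8 h and 47.7 to 48.5 at 1 h. The 7 stromal markers summed to 403 to 448 at 8 h and 137 to 148 at 1 h. Of these 7, Pdgfrb was called, with 8.03 and 8.26 in the 8 h wells, against 4.64 and 4.39 in the 1 h wells and a difference of 3.63 ± 0.22, and the collagens Col1a1, Col1a2 and Col3a1 differed by 0.29 ± 0.15, 0.21 ± 0.16 and 0.23 ± 0.15 and were not called. Dcn, a proteoglycan, was higher by 0.93 ± 0.24 (adjusted p = 0.0016), under the minimum change, with means of 4.36 at 8 h and 3.43 at 1 h. The files hold no detection calls, so no marker can be said to be at 0, and the part of other cells in the results was not tested. Fewer cells of a kind and less RNA per cell cannot be told apart in these wells.

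Set in the whole 5 ng/ml course, 638 of the 880 risen genes (72.5%) had their highest mean at 8 h and 194 (22.0%) at 24 h. Of the 1186 fallen genes 831 (70.1%) had their lowest mean at 8 h and 319 (26.9%) at 24 h. The 8 h arrays chose these genes, so the shares are a description. Timing differed between genes with like changes. Nos2 had mean levels of 4.48, 4.23, 8.98, 12.18 and 11.67 at 1, 2, 4, 8 and 24 h. Ccl17, by contrast, had 4.72, 4.94, 9.67, 10.34 and 7.37, and Cfb had 5.01, 5.14, 6.98, 10.66 and 12.39. Nos2 was near its 8 h level at 24 h, Ccl17 was lower at 24 h and Cfb higher. Egr1 had 9.68, 8.17, 5.52, 5.64 and 6.74, and was near its floor by 4 h. Dusp6 had 10.15, 8.57, 6.25, 7.66 and 9.54, lowest at 4 h and at 24 h close to its 1 h level. Uhrf1 had 9.68, 9.69, 9.05, 6.43 and 5.99. Its levels at 1 h and 2 h were alike and most of the fall lay between 4 h and 8 h. Bcl2 had 9.97, 9.73, 9.11, 7.08 and 9.47, lowest at 8 h. The 2 wells at 24 h differed by over 1.5 log2 in 30 genes, and for Bcl2 they stood at 9.21 and 9.72.

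**Figure D4:**
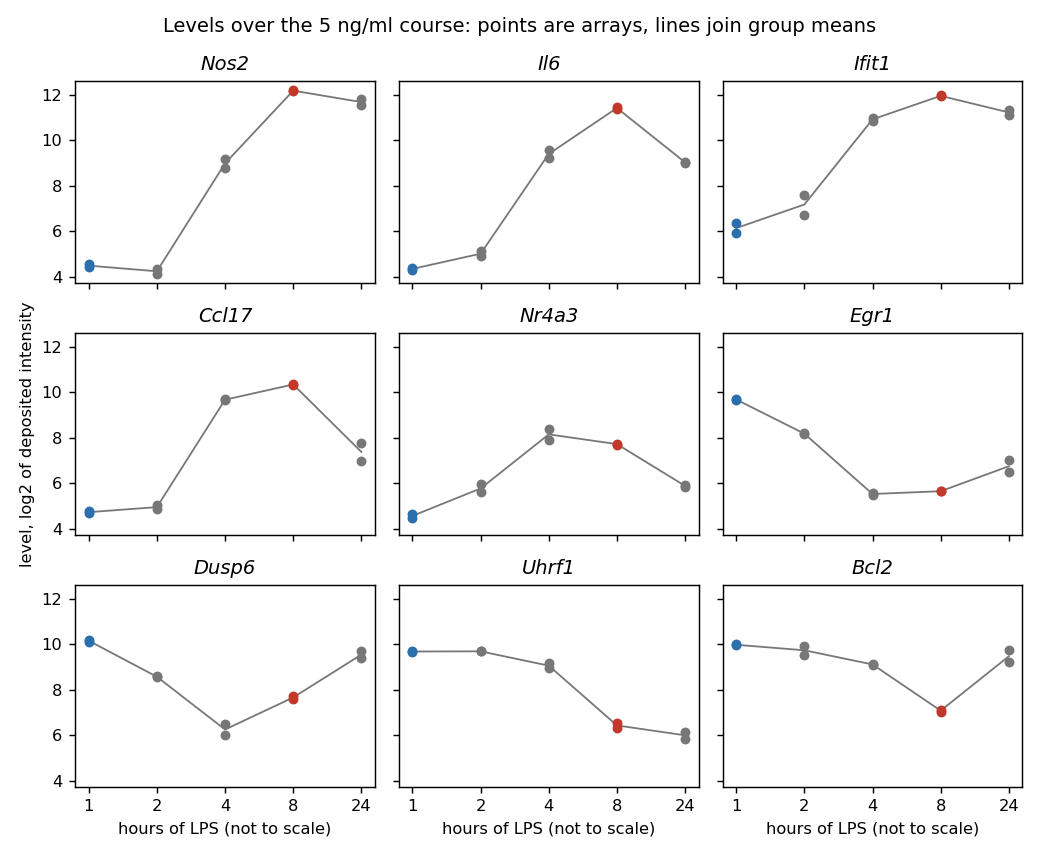
Levels of 9 genes over the C57BL/6 5 ng/ml course, as log2 of the deposited intensity against hours of LPS, spaced evenly. Points are arrays, with the 1 h wells blue and the 8 h wells red, and lines join group means. Nos2, Il6, Ifit1 and Ccl17 peak at 8 h, Nr4a3 peaks at 4 h, and Egr1 and Dusp6 are lowest at 4 h.

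The same change was measured at the lower and the higher dose. At 0.5, 5 and 50 ng/ml 1201 (6.38%), 2066 (11.0%) and 1956 (10.4%) of 18820 genes were called. The 1 h wells at 0.5 and 50 ng/ml differed from each other as described above. The counts at those doses were not repeated with single wells left out. The courses at the different doses share no arrays, so the difference of their changes was tested directly. At 5 ng/ml against 0.5 ng/ml the change differed in 461 genes (2.45%), 264 upward (1.40%) and 197 downward (1.05%). Centring the arrays gave 179 upward and 357 downward, a share of 33.4% upward in place of 57.3%, so that the balance of directions depends on the scaling. Edn1 at 0.5 ng/ml had 6.88 and 7.52 in the 8 h wells, against 5.01 and 4.05 in the 1 h wells, a change of 2.67 ± 0.34. The change at 5 ng/ml, given above, was larger by 3.46 ± 0.48 (adjusted p = 5.3e-06). For Inhba, the subunit of activin A, the change was 4.69 ± 0.31 at 5 ng/ml and 1.74 ± 0.31 at 0.5 ng/ml, a difference of 2.95 ± 0.44 (adjusted p = 1.7e-05). Il6 was not among the 5 genes per direction picked for this comparison. Its changes were 7.07 ± 0.56 at 5 ng/ml and 4.31 ± 0.56 at 0.5 ng/ml, a difference of 2.77 ± 0.79 (adjusted p = 0.022). Whether that difference holds without single wells is not given here, and the cytokine count of this comparison fell without the 0.5 ng/ml 1 h replicate 1, as described below. The immediate early gene Fos fell at 5 ng/ml, with 6.58 and 6.78 in the 8 h wells, against 8.48 and 8.29 in the 1 h wells. At 0.5 ng/ml it had 7.85 and 7.78 in the 8 h wells, against 7.37 and 7.61 in the 1 h wells. The difference of the changes was -2.03 ± 0.32 (adjusted p = 4.2e-05), and the groups at 0.5 ng/ml lay in the opposite order. Egr2 differed by -1.98 ± 0.29 and Maff, a small Maf transcription factor, by -1.96 ± 0.27. Neither was called lower or higher at 0.5 ng/ml, and Maff was not called at 5 ng/ml either, at -0.98 ± 0.19. E2f2 and Tbc1d2, a regulator of Rab GTPases, differed by -2.05 ± 0.25 and -2.0005 ± 0.33. Over the immediate early list 8 of 22 changed more downward and 1 more upward, and over the phosphatase list 4 of 14 more downward, counts that ran from 7 to 13 and from 4 to 4 with each of the 8 arrays left out and under other scalings.

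For interferon-stimulated genes the dose difference hung on single wells. Of the 29 antiviral genes 17 had a larger rise at 5 than at 0.5 ng/ml with all arrays, 4 without the 0.5 ng/ml 1 h replicate 1, and 22 without the 0.5 ng/ml 1 h replicate 2. Ifit1 shows the wells, with 11.26 and 11.41 in the 8 h wells, against 8.80 and 7.12 in the 1 h wells at 0.5 ng/ml and a difference of 2.45 ± 0.57. Other wells moved the count too: it was 8 and 12 without the 0.5 ng/ml 8 h replicates 1 and 2, 9 and 11 without the 5 ng/ml 8 h replicates 2 and 1, and 10 without the 5 ng/ml 1 h replicate 1. The cytokine count was 11 of 24 upward, 5 without the 0.5 ng/ml 1 h replicate 1 and 7 without the 5 ng/ml 1 h replicate 2. The differences of Cfb at 3.24 ± 1.01, of the membrane protein Ms4a4c at 3.06 ± 0.79 and of the HIN-200 gene Ifi213 at 2.99 ± 0.70 were among the 5 largest, and none of the 3 was called without the 0.5 ng/ml 1 h replicate 1. Without it they were 1.53, 1.97 and 1.94, with adjusted p of 0.39, 0.15 and 0.091. The call of Cfb was also lost without any 1 of 6 of the other 7 arrays.

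Against 50 ng/ml, 14 genes differed (0.0744%), 10 upward (0.0531%) and 4 downward (0.0213%). These counts depended on single wells. Without replicate 2 of the 1 h wells at 50 ng/ml 128 genes were called. Without replicate 1 of those wells 4 were called, of which 2 are among the 14. The count was 3 without the 50 ng/ml 8 h replicate 1, and 8 and 6 without the 5 ng/ml 8 h replicates 1 and 2, and each of the 9 genes named here lost its call without at least 1 array. Fitted on the 8 arrays compared alone, 0 genes were called by limma, with 1758 at an unadjusted p under 0.05, against 1339 when all arrays shared the error. The median SE of a difference over genes was 0.24. Inhba differed by 2.67 ± 0.44 (adjusted p = 0.0041), with 7.49 and 7.56 in the 8 h wells, against 6.17 and 4.84 in the 1 h wells at 50 ng/ml. The 8 h wells at 50 ng/ml lay below those at 5 ng/ml, which had 8.96 and 8.68. Cdkn2b, an inhibitor of cyclin-dependent kinases, had 5.62 and 5.83 in the 8 h wells, against 5.92 and 5.96 in the 1 h wells at 50 ng/ml, the 8 h wells below the 1 h wells, and differed by 1.49 ± 0.25 (adjusted p = 0.0041). Dll4, a Notch ligand, had 4.79 and 4.80 in the 8 h wells, against 5.15 and 4.84 in the 1 h wells at 5 ng/ml and was not called. At 50 ng/ml it had 5.57 and 5.58 in the 8 h wells, against 4.34 and 4.45 in the 1 h wells, a difference of -1.38 ± 0.26 (adjusted p = 0.0091). The growth factor Angpt1 differed by -1.22 ± 0.26, Spsb1, a ubiquitin ligase adaptor, by -1.16 ± 0.21, and the olfactory receptor gene Olfr618, dim in all wells, by -1.21 ± 0.26. Ifit1 differed by 2.60 ± 0.57, the phosphodiesterase Pde10a by 1.73 ± 0.38 and Eid3 by 1.42 ± 0.30, and their 1 h wells at 50 ng/ml were 10.10 and 7.54, 6.23 and 4.93 and 6.62 and 6.38.

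In BALB/c macrophages at the same dose 2017 genes were called between 8 h and 1 h (10.7%). The change differed between C57BL/6 and BALB/c in 401 genes (2.13%), 242 upward (1.29%) and 159 downward (0.845%), and centring gave 191 and 215, a share of 47.0% upward in place of 60.4%. Strain and cell preparation cannot be told apart here. The strain differences of the interleukin-12 subunits had opposite signs. Il12b rose more in C57BL/6, the BALB/c wells having 9.57 and 9.71 in the 8 h wells, against 6.13 and 6.42 in the 1 h wells, a difference of 2.71 ± 0.44 (adjusted p = 7.5e-05). Il12a rose less in C57BL/6, the BALB/c wells having 10.60 and 10.57 in the 8 h wells, against 4.16 and 4.21 in the 1 h wells, a difference of -2.62 ± 0.30 (adjusted p = 1.4e-07). Plagl1, an imprinted zinc finger gene, had 8.15 and 8.08 in the 8 h wells, against 5.37 and 5.05 in the 1 h wells in C57BL/6. In BALB/c it had 5.61 and 5.92 in the 8 h wells, against 5.46 and 5.59 in the 1 h wells, and the difference was 2.66 ± 0.22 (adjusted p = 4.0e-11). Lfng, a glycosyltransferase that modifies Notch receptors, had 7.97 and 7.87 in the 8 h wells, against 10.47 and 10.50 in the 1 h wells in C57BL/6. In BALB/c it had 9.80 and 9.85 in the 8 h wells, against 9.93 and 9.76 in the 1 h wells, with overlap of the times and a difference of -2.54 ± 0.22 (adjusted p = 2.6e-10). Iqgap2, a scaffold of the cytoskeleton, had 9.30 and 9.26 in the 8 h wells, against 9.51 and 9.52 in the 1 h wells in C57BL/6 and was not called. In BALB/c it had 9.42 and 9.55 in the 8 h wells, against 7.04 and 6.88 in the 1 h wells, a difference of -2.76 ± 0.22 (adjusted p = 1.5e-11). Ifi213 and the apolipoprotein L gene Apol7c differed by 4.19 ± 0.70 and 2.98 ± 0.63, their BALB/c wells at 8 h standing at 4.24 and 4.77 and 2.73 and 2.52. Those wells were dim for Apol7c and near the dim level of 4.19 for Ifi213, so both differences are as measured and not exact. Gbp5 differed by 2.60 ± 0.58. The kinase gene Alpk2 and F830045P16Rik differed by -2.41 ± 0.26 and -3.16 ± 0.25. By list, 7 of 29 antiviral genes, 6 of 24 cytokines, 4 of 18 NF-kB genes and 4 of 14 phosphatase and decay genes changed more upward in C57BL/6, and 0, 1, 0 and 1 more downward. With each array left out and under other scalings those upward counts ran from 5 to 8, 5 to 6, 2 to 6 and 3 to 5.

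**Figure D5:**
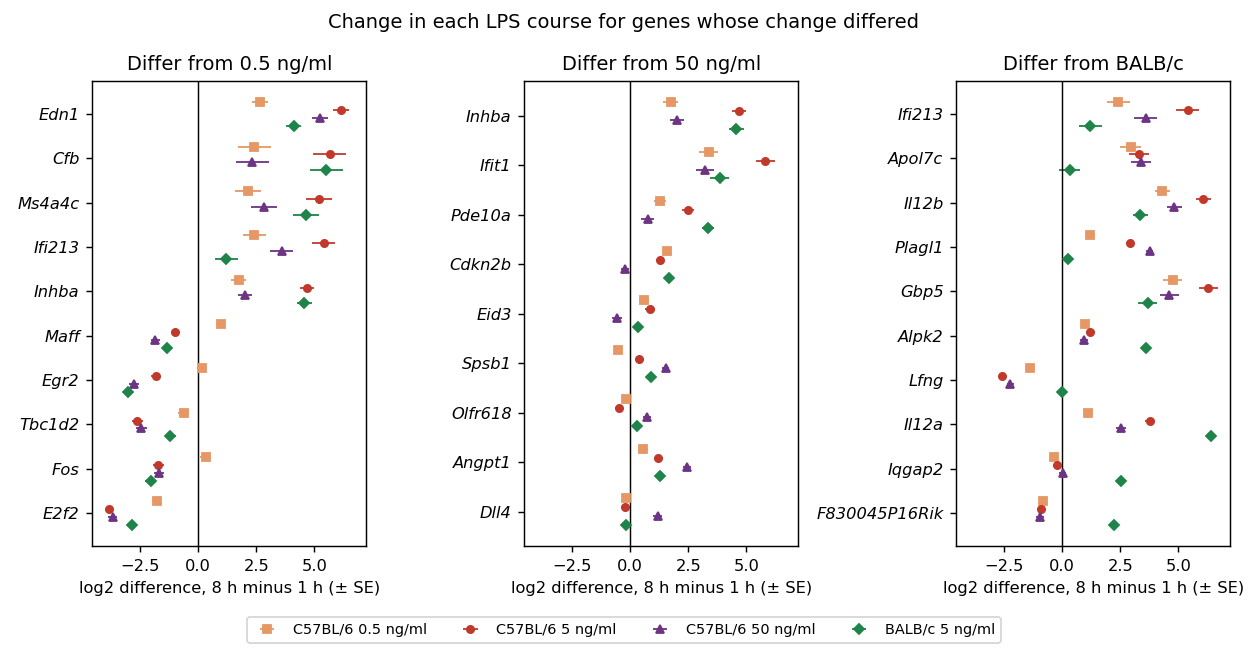
Log2 difference, 8 h minus 1 h ± SE (n = 2 wells per time), in the 4 LPS courses for the genes whose change at C57BL/6 5 ng/ml differed most from that at 0.5 ng/ml, at 50 ng/ml or in BALB/c. Colours and symbols give the course. Fos and Egr2 lie below 0 in 3 courses and above 0 at 0.5 ng/ml, and Lfng and Plagl1 lie near 0 in BALB/c.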

How the data were processed

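The authors deposited a normalised intensity per probe set, linear and running from 2.49 to 17782. How it was normalised is not given in the sources used here. Per the submitters' processing notes, Affymetrix Expression Console 1.1 was used, and per the labels' protocols 250 ng of total RNA per well was labelled. Array medians lay between 25.6 and 29.0. Precision is limited by how few arrays each group has. The log2 of the deposited intensity was taken, with no filter and no further scaling. Of 35556 probe sets 21218 had 1 gene symbol in the platform annotation, 1881 several and 12457 none. The brightest of a gene's probe sets was kept, which left 18820 genes, 1386 of them with several.

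Group means of all 64 arrays were fitted with limma 3.58.1 in R 4.3.3 (data.table package at version 1.17.8), with 32 residual degrees of freedom. The 8 h minus 1 h difference and its differences between courses were tested by limma's moderated test. The rule for named genes took the 14 largest rises and 12 largest falls with arrays apart and without gene-model names, up to 5 members of each of 29 lists with the largest change, and up to 5 genes per direction of each difference between courses. Ifi27l2a, Ifitm3, Tlr5, Tnfsf9, Vegfa, Itgax and Col1a2 fall outside it and were chosen after their values were seen, as were the genes marked so in the text. The gene lists were also chosen with earlier results of these data known, and some listed genes were not analysed here. Alternatives were centring, quantile normalisation, a filter under the 40th percentile, log2(intensity + 16), other treatments of probe sets, fits of fewer arrays, trend and robust settings, other minimum changes, a replicate block, the array split as a covariate and each array left out. A fit of the 53 arrays alone and one without groups whose wells differed by over 1.5 log2 in 10 or more genes were added after seeing the data.

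The replicate numbers were not used as pairs in the main fit. Deviations of same-numbered wells at 8 h and 1 h correlated at 0.0063 across genes. Whether same-numbered wells shared a preparation was not tested. On simulated data over 18820 genes with 50 genes changed by each of 1.5, 2, 3 and -2 log2, the 8 h against 1 h test recovered 48, 50, 50 and 50 and made 1 false call. The simulated noise was normal and independent between arrays, with each gene's fitted spread. It held no discordant wells and no array split, so it checks the procedure and not the calls on the real arrays.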

Additional observations from a re-analysis of the deposited data

Results flagged for a closer look

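The size of the change from 1 h to 8 h was tested against that of 3 other courses, and every gene below differed by limma's moderated test. Values are the change at C57BL/6 5 ng/ml minus the change in the other course, in log2, from 2 wells per time.

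Against 0.5 ng/ml 461 genes differed. The largest upward differences were those of Edn1 at 3.46, Cfb at 3.24, Ms4a4c at 3.06, Ifi213 at 2.99 and Inhba at 2.95. The largest downward differences were those of E2f2 at -2.05, Fos at -2.03, Tbc1d2 at -2.0005, Egr2 at -1.98 and Maff at -1.96. The 1 h wells at 0.5 ng/ml stood apart from each other in 25 genes, and Cfb, Ms4a4c and Ifi213 were not called without replicate 1 of them.

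Against 50 ng/ml 14 genes differed. Inhba stood at 2.67, Ifit1 at 2.60, Pde10a at 1.73, Cdkn2b at 1.49 and Eid3 at 1.42, and Dll4 at -1.38, Angpt1 at -1.22, Olfr618 at -1.21 and Spsb1 at -1.16. The 1 h wells at 50 ng/ml stood apart from each other in 80 genes.

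Against BALB/c 401 genes differed, with strain and cell preparation not to be told apart. Ifi213 stood at 4.19, Apol7c at 2.98, Il12b at 2.71, Plagl1 at 2.66 and Gbp5 at 2.60. In the other direction F830045P16Rik stood at -3.16, Iqgap2 at -2.76, Il12a at -2.62, Lfng at -2.54 and Alpk2 at -2.41. The BALB/c 8 h wells were dim for Apol7c and near the dim level for Ifi213, so those 2 differences are not exact.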

How the results depend on the processing

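The count of 2066 genes between 8 h and 1 h lay within 1.5 times its value under every alternative run except those of the minimum change, which gave 6374 (2719 higher, 3655 lower) with none and 519 (315 higher, 204 lower) at 2 log2. Testing every probe set called 1449 as higher. With each of the 4 arrays left out it ran from 2084 to 2124, with 871 to 912 higher and 1194 to 1224 lower. For the 158 named genes under 18 alternatives, 2767 of 2844 values stayed on their side of the threshold, 60 lost and 17 gained a call, and 0 changed direction. Apart from the minimum change, the genes that lost a call were Srxn1, Abca1, Idi1, Trib3, Per2, Per3 and Cd209a, all near 1 log2. Differences between courses were 1550 with no minimum and 37 at 2 log2 against 0.5 ng/ml, and 1247 and 28 against BALB/c. With each array left out they ran from 397 to 561 and from 359 to 520. Against 50 ng/ml they were 28 and 2, 0 with the compared groups fitted alone, 4 with the LPS arrays of C57BL/6 alone, 29 with the array split as a covariate, 40 on the 53 arrays of its larger side, and 3 to 128 with each array left out. Why that count moves was not tested. The replicate block gave 2066 genes for 8 h against 1 h and 470, 13 and 405 for the differences against 0.5 ng/ml, 50 ng/ml and BALB/c, and moved no count by over 1.5 times. With 2 wells per time, the median SE over genes was 0.17 for a change and 0.24 for a difference of changes. For a gene with such an SE, changes of that size could not be told from 0. Changes larger than their SE could fail as well. Sdhb of the respiratory chain, at -0.28 ± 0.12, had an adjusted p of 0.067 by limma's moderated test.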
